A study of Mus musculus with 18 samples.

Results

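Late GATA6-only regions in enhancer states are 1484 of the 42403 deposited GATA6 binding regions, or 3.5% of them. Per the paper, GATA6 binding was profiled in KH2 mouse embryonic stem (ES) cells during GATA6 induction and also in XEN cells, an extra-embryonic endoderm line. A region need not have been bound in both. The 1484 members were chosen by 4 classes of the deposited table. GATA6 binding was Late, no pluripotency transcription factor (PTF; OCT4, SOX2 or ESRRB) and no SOX17 peak was called there, and the histone marks of ES cells placed the region in an active, poised or primed enhancer state. These classes rest on measured GATA6, PTF, SOX17 and histone signal, so they describe the members and are not findings. They narrow 14243 Late regions to 12558 without PTFs, to 6414 without PTFs and SOX17, and to 1484 in an enhancer state. Of these, 140 (9.43%) were active, 789 (53.2%) poised and 555 (37.4%) primed.

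The series holds 18 MNase-seq libraries of KH2 cells (C57BL/6 x 129/Sv) with a doxycycline (Dox)-inducible Gata6 cassette, 3 replicates each of untreated cells and of cells after 8, 16, 24, 48 and 96 h of Dox. All groups carry the transgene, were grown on feeders with LIF and serum, and derive from selected clones. GATA6 is therefore first supplied ectopically, and the paper reports that endogenous Gata6 is then rapidly activated. Untreated cells (d0) are the control. None of the columns used holds a value of an MNase library, so nucleosome signal and library depth were not analysed here, regions were the units of every comparison, and intervals cover counting error among regions only.

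GATA6 is a zinc finger transcription factor that binds GATA words in DNA and directs the primitive endoderm (PrE), the extra-embryonic lineage that lines the blastocoel and later forms yolk sac endoderm. SOX17 is an HMG-box factor of the same lineage, and OCT4, SOX2 and ESRRB maintain pluripotency. Enhancers are gene-distal elements that bind such factors, and their histone marks distinguish elements already in use in a cell from those held in a primed or poised condition.

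The strongest motif matches among these regions are given first as sequences, and a match is no evidence of binding. For each state the 2 members with the highest deposited GATA6 motif score (a log-odds match to the GATA6 matrix) are shown, as 61 bp of the plus strand of GRCm38 (mm10), with the 13 bp motif in capitals. Each holds AGATAA or its reverse complement TTATCT inside the motif, which the choice by highest score favoured. Over all members with a motif near the summit, the best one held AGATAA in 50.3% and no GATA in 18%.
Active, intron of Ppp1r16a, chr15:76683219-76683279: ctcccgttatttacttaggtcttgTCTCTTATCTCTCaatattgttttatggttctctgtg
Active, Triobp, chr15:78984445-78984505: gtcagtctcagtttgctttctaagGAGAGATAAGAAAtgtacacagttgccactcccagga
Poised, intron of Ppp1r12a, chr10:108255917-108255977: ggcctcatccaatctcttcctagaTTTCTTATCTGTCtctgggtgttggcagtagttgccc
Poised, intron of Sar1b, chr11:51775733-51775793: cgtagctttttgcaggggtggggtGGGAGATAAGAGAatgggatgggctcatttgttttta
Primed, intron of Trak2, chr1:58954187-58954247: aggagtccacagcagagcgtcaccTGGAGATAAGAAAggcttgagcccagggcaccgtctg
Primed, between genes near Fndc3b, chr3:27780485-27780545: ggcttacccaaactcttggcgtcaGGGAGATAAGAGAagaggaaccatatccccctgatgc
Their scores lay between 15.01 (Trak2) and 15.20 (Sar1b and Fndc3b), at the top of the range of 6.23 to 15.20 over all members with a motif. The Triobp motif lay 4 bp from the summit and its summit 766 bp from the nearest annotated transcript start. The Fndc3b motif lay 51 bp from the summit, 69157 bp from the nearest transcript start.

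The first comparison asked how the DNA of these regions differs from that of related GATA6 regions. The members were compared with groups that differ from them in 1 class each. These are 1657 Late regions in enhancer states with a SOX17 peak (SOX17-bound Late enhancer regions), 4619 Late GATA6-only regions in naive or heterochromatin states (Late GATA6-only regions in other states), and 4488 Transient GATA6-only regions in enhancer states (Transient enhancer regions). None of the 3 groups had PTFs. The summit and 100 bp on either side of it were scanned as the window, and windows of the same size at a distance of 3 kb from the summit, free of GATA6 regions, served as background. Odds ratios are on the log2 scale with 95% intervals, p-values come from two-sided Fisher's exact tests, and they are adjusted over 78 tables by the Benjamini-Hochberg procedure.

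A GATA6 motif was present in the window of 1058 of the 1484 members, or 71.3% (95% Wilson interval 68.9 to 73.5), against 31% of their control windows (29.3 to 32.7). It was present in 64.5% of SOX17-bound Late enhancer regions, in 83.5% of Late GATA6-only regions in other states and in 80.8% of Transient enhancer regions. Members thus held it more often than SOX17-bound regions (log2 odds ratio 0.45, 0.23 to 0.67, adjusted p = 0.000128) and less often than the other 2 groups (-1.03, -1.22 to -0.83, adjusted p = 1.54e-22, and -0.76, -0.96 to -0.57, adjusted p = 1.65e-13). The direction was the same on 15 of 20 chromosomes against SOX17-bound regions and on 20 of 20 against each of the others. Over whole regions the first difference was not detectable (0.04, adjusted p = 0.826), and there the SOX17-bound regions were wider, with a mean of 517 bp against 382 bp.

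The match itself also differed in quality. The best GATA6 score averaged 9.66 in the 1200 members with a motif anywhere in the region (SD 2.28), 9.40 in SOX17-bound regions, 10.19 in Late GATA6-only regions in other states and 10.64 in Transient enhancer regions. Members exceeded SOX17-bound regions by 0.257 (95% interval 0.0839 to 0.431) and lay below Transient enhancer regions by 0.975 (difference -0.975, -1.12 to -0.826). In 50.3% of the members with a motif in the window the best one contained AGATAA, in a further 17.6% TGATAA, in 14.2% another GATA, and in 18% no GATA at all. The corresponding share with AGATAA was 44.5% in SOX17-bound regions, 56.5% in the other states and 62.4% in Transient enhancer regions. These shares of motif forms are descriptions and were not tested.

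The motif clustered at the summit. Among the 1058 members with a motif, 437 had its centre at most 25 bp from the summit (41.3%, 38.4 to 44.3), in 37.2% of SOX17-bound regions (34.4 to 40.2), in 41.9% of the other states (40.4 to 43.5) and in 45.8% of Transient enhancer regions (44.2 to 47.4). The median distance was 31 bp in members and 28 bp in Transient enhancer regions. A second GATA6 motif in the window was found in 29.8% of members, 23.3% of SOX17-bound regions, 46.2% of the other states and 30.3% of Transient enhancer regions.

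**Figure D1:**
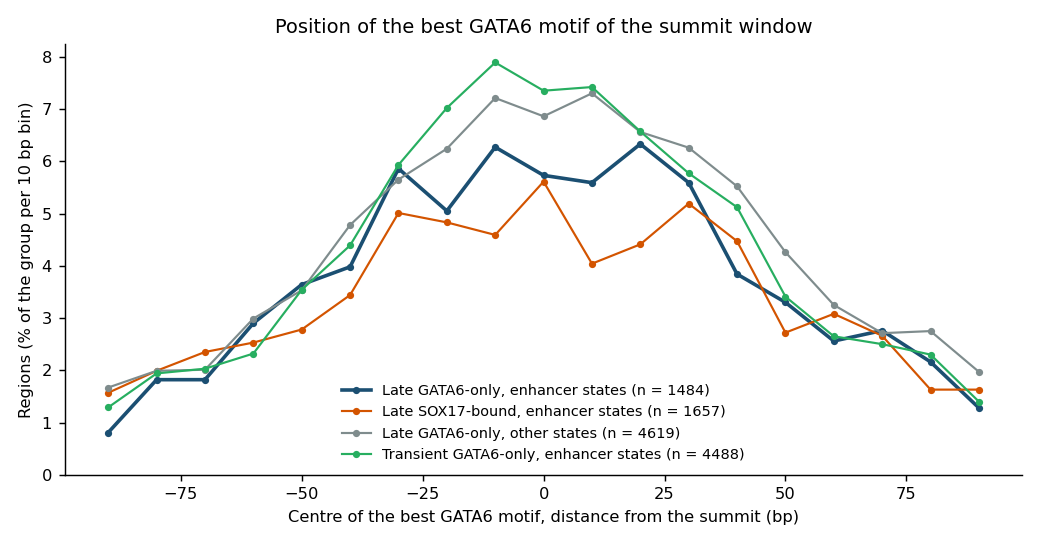
Share of each group's regions (y axis, % per 10 bp bin) by the distance of the centre of the best GATA6 motif from the summit (x axis, bp), with 1 line per group. In members the share was 6.27% in the bin 10 bp before the summit and 0.809% in the bin 90 bp before it, and the line of Transient enhancer regions lies above at the centre (7.89%).

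A SOX17 motif was present in 30.3% of member windows (28 to 32.7), close to the 27.1% of their control windows (25.5 to 28.8). In SOX17-bound Late enhancer regions it was present in 56.5%. The log2 odds ratio was -1.58 (-1.79 to -1.36, adjusted p = 1.22e-48), with the same direction on 20 of 20 chromosomes. SOX17 peaks chose the members, but the motif did not. Late GATA6-only regions in other states, which also lacked SOX17 peaks, held the motif in 41.4% of windows (log2 odds ratio -0.70, -0.88 to -0.52, adjusted p = 6.06e-14). Against Transient enhancer regions (27.8%) the difference missed the threshold (0.18, -0.01 to 0.36, adjusted p = 0.106), and over whole regions, where Transient regions were wider by 138 bp on average, it turned to -0.39 (adjusted p = 2.22e-05).

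Of the motifs of the pluripotency factors, OCT4:SOX2 lay below the background and ESRRB somewhat above it. Members were chosen without PTF peaks, so their content of these motifs is not independent of that choice. The composite OCT4:SOX2 motif occurred in 28.6% of member windows (26.4 to 31), below the 33.3% of their control windows (31.5 to 35). SOX17-bound regions (29.5%) and the other states (35.6%) also lay below their own control windows (31.3% and 38%). Transient enhancer regions lay above theirs (33%). Transient enhancer regions, equally free of PTF peaks, held it in 37.9% (log2 odds ratio -0.61, -0.79 to -0.42, adjusted p = 2.25e-10, 20 of 20 chromosomes). Against SOX17-bound regions (29.5%) no difference was detectable (-0.06, -0.28 to 0.16, adjusted p = 0.699). Against Late GATA6-only regions in other states (35.6%) the log2 odds ratio of -0.46 (-0.64 to -0.28, adjusted p = 2.57e-06) was 0.00 within bins of GC content. The ESRRB motif occurred in 14.4% of member windows (12.7 to 16.2) and 11.8% of control windows (10.6 to 13). Differences from control windows were not tested. The ESRRB share in members was lower than in Transient enhancer regions (19.1%, -0.50, -0.73 to -0.26, adjusted p = 6.56e-05) and higher than in the other states (11.3%, 0.40, 0.15 to 0.64, adjusted p = 0.0047).

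**Figure D2:**
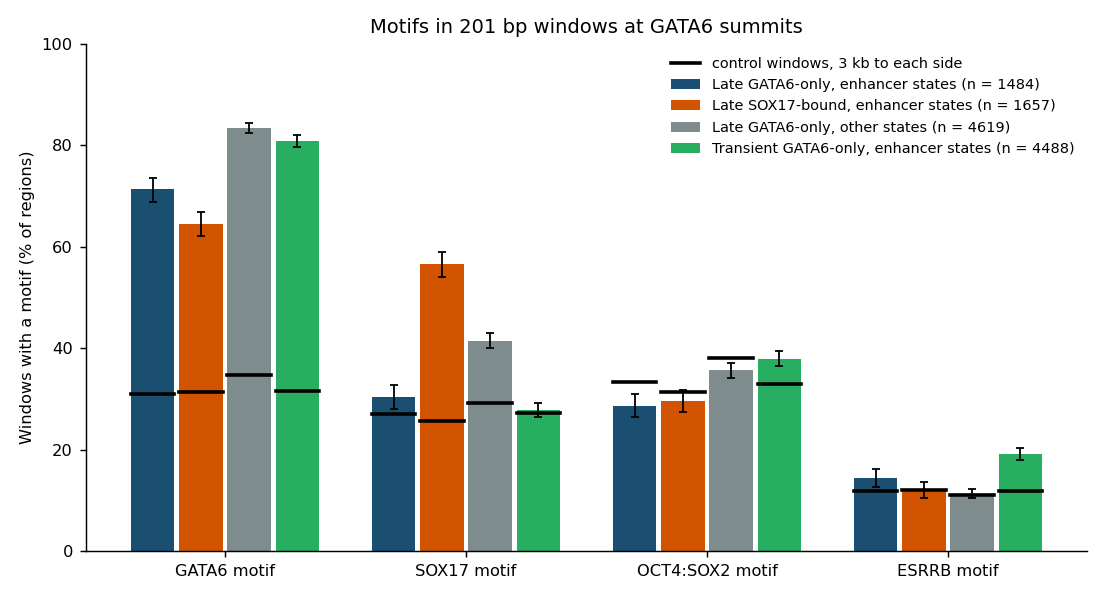
Share of summit windows (100 bp to either side) with a motif (y axis, % of regions) for 4 motifs and 4 groups. Error bars are 95% Wilson intervals and black ticks give the same group's control windows. The GATA6 bars stand well above their ticks in every group, whereas the SOX17 bar of the Late GATA6-only enhancer regions (30.3%) stands near its tick (27.1%) and that of the SOX17-bound regions (56.5%) does not.

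A set of 13 short words of factor families was then searched on both strands of longer windows, with 150 bp on either side of the summit. A match describes the letters in a window and is no evidence of binding. Against Transient enhancer regions 4 of 13 words differed, against SOX17-bound regions 4 (2 without summits near transcript starts) and against the other states 7 (4 within bins of GC content). AGATAA and TGATAA overlap the GATA6 matrix and are not independent of it. AGATAA was in 47.3% of members and 13.9% of control windows, and TGATAA in 32.6% and 11.9%.

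TGANTCA, the core of AP-1 (JUN and FOS) sites, was in 290 member windows, or 19.5% (17.6 to 21.6), against 8.67% of their control windows (7.69 to 9.78) and 14.2% of all 42403 regions. In Transient enhancer regions it was in 9.8%, a log2 odds ratio of 1.16 (0.93 to 1.39, adjusted p = 2e-20, 20 of 20 chromosomes). The odds ratio was 1.19 within bins of GC content. SOX17-bound Late enhancer regions held it in 18.3% of windows, and that difference was not detectable (0.11, -0.15 to 0.37, adjusted p = 0.509). Against the other states (16.9%) the adjusted p was 0.0457, and 0.419 within bins of GC content and 0.0958 in windows of 100 bp to either side.

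TGTTTAC, a core of forkhead (FOX) sites, also differed from Transient enhancer regions. It was in 148 member windows (9.97%, 8.55 to 11.6), in 4.37% of their control windows, in 4.19% of Transient enhancer regions and in 7.94% of all regions. The log2 odds ratio against Transient enhancer regions was 1.34 (1.02 to 1.66, adjusted p = 1.71e-14, 19 of 20 chromosomes). SOX17-bound regions (11.8%) and the other states (11.5%) were not distinguished from members in these windows (log2 odds ratios -0.27 and -0.23, adjusted p = 0.17 for each). In windows of 100 bp to either side the word was less frequent in members than in both (-0.44, adjusted p = 0.0328, and -0.36, adjusted p = 0.0419).

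CCACACCC, a site of Krüppel-like factors such as KLF4 and KLF5, was in 121 member windows (8.15%, 6.87 to 9.66), in 2.22% of their control windows and in 5.83% of all regions. It was more frequent than in the other states (4.01%, log2 odds ratio 1.09, 0.75 to 1.43, adjusted p = 5.9e-09) and in SOX17-bound regions (5.37%, 0.65, 0.24 to 1.05, adjusted p = 0.0047), and close to Transient enhancer regions (8.4%, -0.05, -0.36 to 0.26, adjusted p = 0.841). In windows of 100 bp to either side the difference from SOX17-bound regions missed the threshold (0.51, adjusted p = 0.0547), as it did without summits near transcript starts (0.48, adjusted p = 0.0659).

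AACAAAG, a SOX word that overlaps the SOX17 matrix, was in 8.49% of member windows and 8.35% of control windows, against 19.6% of SOX17-bound regions (-1.39, -1.71 to -1.08, adjusted p = 1.32e-18), 14.3% of the other states (-0.84, -1.13 to -0.55, adjusted p = 8.62e-09) and 15.4% of all regions. As for the SOX17 motif, the contrast with SOX17-bound regions is not independent of how the members were chosen. Against Transient enhancer regions (10.3%) the difference missed the threshold (-0.30, adjusted p = 0.0946), but passed it in windows of 100 bp to either side (-0.40, adjusted p = 0.0446) and within bins of GC content (-0.45, adjusted p = 0.00717). ATTTGCAT, the octamer bound by OCT4 and part of the composite motif, was in 14 members (0.943%) and in 2.94% of Transient enhancer regions (-1.67, -2.47 to -0.87, adjusted p = 1.09e-05). The TEAD word GGAATG was in 21.2% of members against 14.6% of control windows, and CAAAGTC, part of HNF4 sites, in 6.47% against 4.7%. Neither differed detectably from any of the 3 groups. GCCNNNGGC, the AP-2 word, was in 8.56%, above the other states (4.44%, 1.01, 0.68 to 1.34, adjusted p = 2.31e-08), but the odds ratio was 0.14 within bins of GC content. The E-box CACGTG was in 4.65% of members, above the other states (3.31%, 0.51, 0.09 to 0.93, adjusted p = 0.0428) but with an adjusted p of 0.47 within bins of GC content and 0.109 without summits near transcript starts. The CTCF core CCAGGGGGC was in 4 members and the ETS word CCGGAAGT in 6.

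**Figure D3:**
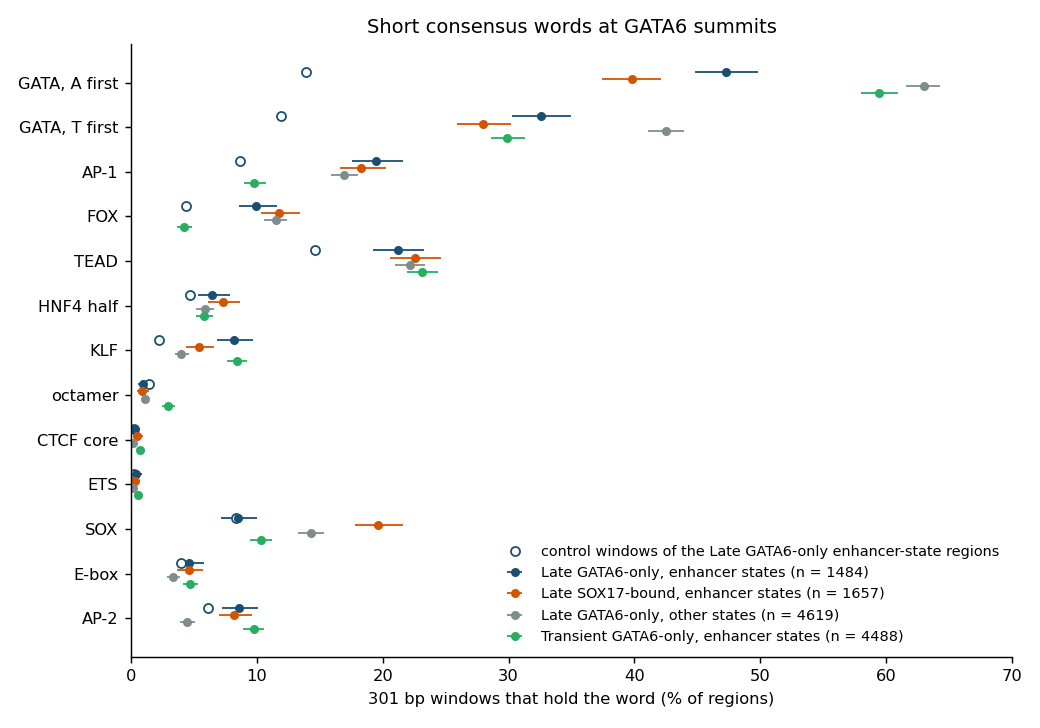
Share of summit windows (150 bp to either side) that hold a short word (x axis, % of regions) for 13 factor families (y axis), with 95% Wilson intervals for 4 groups and open circles for the control windows of the Late GATA6-only enhancer regions. For AP-1 and FOX the members (19.5% and 9.97%) lie with the Late groups and apart from the Transient enhancer regions (9.8% and 4.19%), and for SOX they lie on their own control windows (8.49% and 8.35%).

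The base composition of members differed most from that of Late GATA6-only regions in other states. Against SOX17-bound regions (47.2% GC) the difference was only 0.589 percentage points (0.247 to 0.931). The longer windows of members had 47.8% GC on average (SD 4.92), 4.65 percentage points above Late GATA6-only regions in other states (4.37 to 4.94) and below Transient enhancer regions (difference -1.51, -1.8 to -1.21). Their control windows averaged 45.5%. Members had 4.41 CpG dinucleotides per window (SD 3.23), against 2.79 in the other states and 3.94 in SOX17-bound regions. Transient enhancer regions (4.31) were not distinguished from them (difference 0.0959, -0.0965 to 0.288).

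Members without a GATA6 motif in the window numbered 426. In 33.3% of them the motif lay elsewhere in the region, and 167 (39.2%) still held AGATAA or TGATAA. Compared by description only, after the values had been seen, they held the AP-1 word in 25.6% of windows (21.7 to 29.9) against 17.1% of members with a motif (15 to 19.5). The Krüppel word was in 12% (9.22 to 15.4) against 6.62% (5.27 to 8.28), and 47.7% were open at d0 (43 to 52.4) against 38.3% (35.4 to 41.2). A transcript start was within 1 kb in 13.4% and 13%. Their mean GC content was 48.4% and 47.6%.

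The second comparison asked whether the DNA of these regions was accessible before GATA6 was induced. Of the members, 876 (59%) were in the closed class of the ATAC-seq signal of untreated cells, 562 (37.9%) in the moderate class and 46 (3.1%) in the accessible class. Moderate and accessible regions together are called open here. Members were open in 41% (38.5 to 43.5), close to the 42.2% of SOX17-bound Late enhancer regions (log2 odds ratio -0.08, -0.28 to 0.13, adjusted p = 0.58). Transient enhancer regions were open in 65% (-1.42, -1.60 to -1.25, adjusted p = 8.13e-58). Late GATA6-only regions in other states were open in 2.19% (4.96, 4.64 to 5.28, adjusted p = 1e-300, the smallest value kept). The accessible class alone did not separate members from Transient enhancer regions (3.1% and 3.74%, adjusted p = 0.383). The histone marks that define the states came from ENCODE data of ES cells, and the accessibility from the study's own untreated cells. The contrast with the other states therefore compares related properties of ES cell chromatin, measured in different cultures.

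Of the 4 properties compared between the 3 states, accessibility gave the largest odds ratios. Active members were open in 126 of 140 (90%, 83.9 to 93.9), poised members in 363 of 789 (46%, 42.6 to 49.5) and primed members in 119 of 555 (21.4%, 18.2 to 25). Each pair differed, with log2 odds ratios of 3.40 for active against poised (2.58 to 4.22, adjusted p = 1.81e-23), 5.04 for active against primed (4.19 to 5.89, adjusted p = 4.17e-51) and 1.64 for poised against primed (1.29 to 2.0, adjusted p = 5.05e-20). The accessible class held 25 active, 16 poised and 5 primed members.

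The GATA6 motif was in the window of 63.6% of active members (55.3 to 71.1), 71% of poised members (67.7 to 74) and 73.7% of primed members (69.9 to 77.2). Only active against primed passed the threshold (-0.68, -1.25 to -0.12, adjusted p = 0.0428), and without summits near transcript starts it did not (-0.73, adjusted p = 0.0514). The best score averaged 9.02 in active, 9.64 in poised and 9.83 in primed members, and active members lay 0.813 below primed ones (difference -0.813, -1.25 to -0.377). The mean GC content was 50% in active, 49% in poised and 45.5% in primed members.

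Transcript starts were near active and poised members more often than near primed members. Summits of active members lay within 1 kb of one in 21.4% (15.4 to 28.9), against 15.2% of poised (12.9 to 17.9) and 8.11% of primed members (6.11 to 10.7). Primed members differed from active (log2 odds ratio of active against primed 1.63, 0.90 to 2.36, adjusted p = 6.56e-05) and from poised members (1.02, 0.50 to 1.55, adjusted p = 0.000229). Active against poised did not pass (0.60, -0.04 to 1.25, adjusted p = 0.139). Introns held 65.8% of primed, 51.3% of poised and 45.7% of active members.

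**Figure D4:**
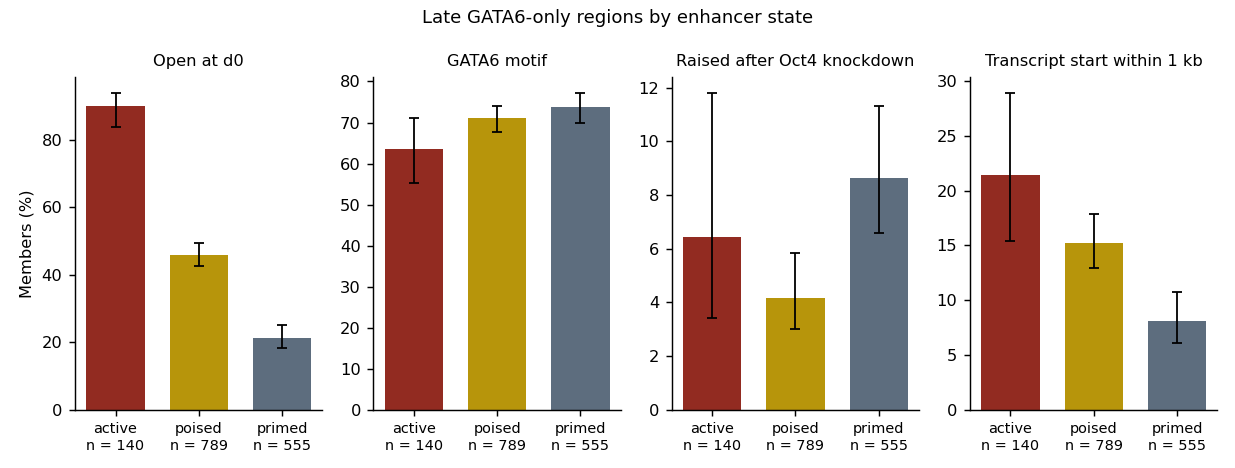
Share of members (y axis, %, each panel with its own scale from 0) that were open at d0, held a GATA6 motif in the summit window, showed raised GATA6 binding after Oct4 knockdown, or lay within 1 kb of a transcript start, for active, poised and primed members, with 95% Wilson intervals. The open share falls from 90% to 46% and 21.4%, while the motif share lies between 63.6% and 73.7%.

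The third comparison concerned the response of GATA6 binding to loss of OCT4. The authors had classed each region by GATA6 ChIP-seq after 48 h of Dox with Oct4 or control small interfering RNAs, calling a change at a false discovery rate below 0.1 and an absolute log2 fold change over 0.5. Of the members, 1390 (93.7%) were unchanged, 90 (6.06%, 4.96 to 7.4) were raised and 4 (0.27%, 0.105 to 0.691) were lowered. Over all regions 8.57% were raised and 6.25% were lowered, so both shares lay below those of the whole table. Among all Late regions 19.2% were raised and 1.07% were lowered, and both shares of members lay below these too. Whether the unchanged members had enough GATA6 signal at 48 h for a change to be called was not tested.

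SOX17-bound Late enhancer regions were raised far more often than members, in 29.9% (log2 odds ratio -2.72, -3.06 to -2.38, adjusted p = 1.21e-69, 20 of 20 chromosomes). Within bins of region width it was -2.17. Late GATA6-only regions in other states were raised in 6% (0.02, -0.34 to 0.37, adjusted p = 0.975), an interval that leaves room for a modest difference either way. Transient enhancer regions were raised in 10 of 4488 (0.223%; 4.85, 3.91 to 5.80, adjusted p = 7.35e-43) and lowered in 2.79%, against the 0.27% of members (-3.41, -4.84 to -1.97, adjusted p = 6.39e-11). Lowered shares of 0.302% in SOX17-bound regions and 0.628% in the other states were not distinguished from the members' (adjusted p = 1 and 0.227).

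Within the members, raised binding was more frequent in the primed state (48 of 555, 8.65%, 6.59 to 11.3) than in the poised state (33 of 789, 4.18%, 2.99 to 5.82), with a log2 odds ratio of -1.12 for poised against primed (-1.78 to -0.46, adjusted p = 0.00238). The 9 active members raised (6.43%, 3.42 to 11.8) were not distinguished from either. As a description, the 90 raised members held 2 or more GATA6 motifs in 44.4% of windows (34.6 to 54.7) against 28.8% of unchanged members (26.5 to 31.2). They held the AP-1 word in 10% (5.35 to 17.9) against 20.1% (18.1 to 22.3), and averaged 469 bp in width against 377 bp. The part of width in the knockdown classes was not tested within the members.

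The 4 lowered members are shown with their summits or motifs, on the plus strand. Capitals mark the GATA6 motif or, in the 2 windows without one, the words searched for GATA and AP-1 on either strand.
Primed, between genes near Mdm4, chr1:132958349-132958409: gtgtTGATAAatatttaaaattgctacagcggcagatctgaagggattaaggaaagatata
Primed, intron of Zfp277, chr12:40348296-40348356: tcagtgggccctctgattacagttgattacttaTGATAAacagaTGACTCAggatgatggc
Poised, intron of Tll2, chr19:41090222-41090282: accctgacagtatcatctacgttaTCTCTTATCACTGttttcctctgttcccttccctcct
Primed, intron of Rab8b, chr9:66913613-66913673: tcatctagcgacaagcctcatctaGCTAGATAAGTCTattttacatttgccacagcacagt
The Tll2 member had the highest score of the 4 (12.08) and was moderate at d0, while the other 3 were closed. The Zfp277 member had no GATA6 motif anywhere in the region, and its summit sequence held TGATAA followed by an AP-1 word.

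**Figure D5:**
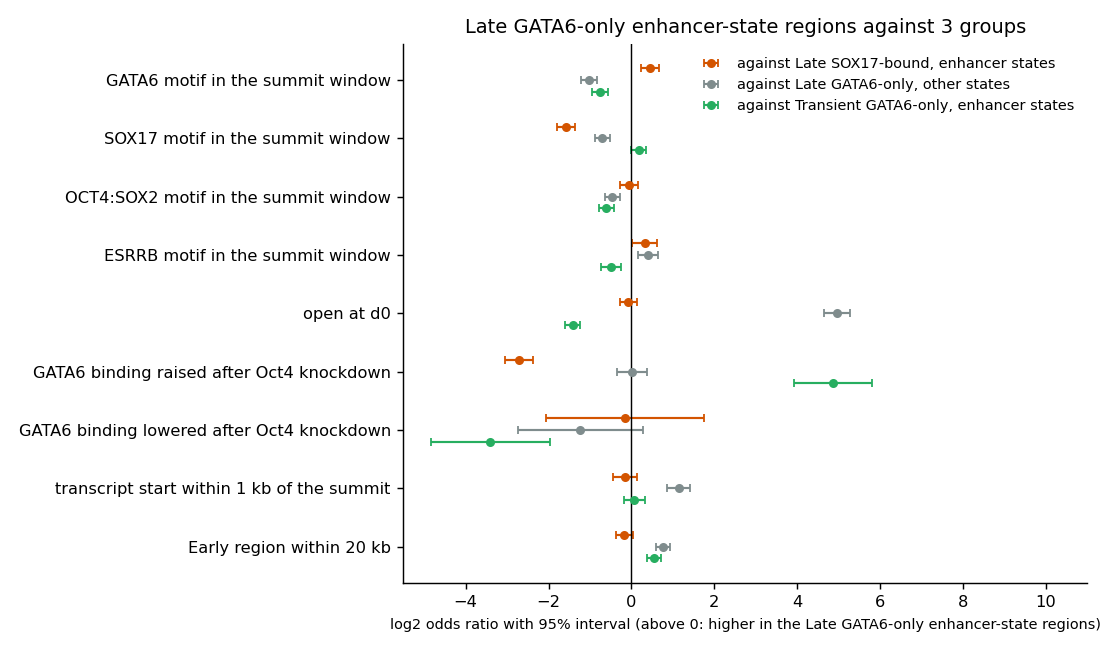
Log2 odds ratios with 95% intervals (x axis) of 9 properties (y axis) in the Late GATA6-only enhancer regions against 3 groups, where values above 0 mean a higher share in the members. Raised binding after Oct4 knockdown stands at -2.72 against SOX17-bound regions, at 0.02 against the other states and at 4.85 against Transient enhancer regions.

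The fourth comparison asked where in the genome these regions lie. Summits were in introns in 834 members (56.2%), between genes in 375 (25.3%), within 1 kb of a transcript start in 195 (13.1%, 11.5 to 15) and in exons in 80 (5.39%). The share near a transcript start was not distinguished from those of SOX17-bound (14.4%, -0.16, -0.45 to 0.14, adjusted p = 0.419) and Transient enhancer regions (12.6%, 0.07, -0.18 to 0.33, adjusted p = 0.651) and exceeded that of the other states (6.43%, 1.14, 0.86 to 1.41, adjusted p = 1.74e-14). The median distance to a transcript start was 6724 bp, against 11669 bp in the other states.

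Members often had other GATA6 regions nearby, as did GATA6 regions in general. An Early&Constant region was within 20 kb of 35.8% of all regions and 36.1% of all Late regions. An Early&Constant region was within 20 kb of 617 members (41.6%, 39.1 to 44.1), more often than of Late GATA6-only regions in other states (29.4%, 0.77, 0.60 to 0.94, adjusted p = 6.29e-17) and of Transient enhancer regions (32.8%, 0.54, 0.37 to 0.72, adjusted p = 4.71e-09). SOX17-bound regions had one in 44.5% (-0.17, -0.38 to 0.03, adjusted p = 0.159), and at 50 kb they exceeded the members (-0.34, adjusted p = 0.00394). The nearest other GATA6 region was Late for 642 members (43.3%), Transient for 469 (31.6%) and Early&Constant for 373 (25.1%), beside 33.6%, 38.4% and 28% of all regions. It lay within 10 kb of 62.9% of members, beside 66.3% of SOX17-bound regions, 47.2% of the other states, 53.2% of Transient enhancer regions and 53.6% of all regions.

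Most members stood alone with respect to each other. When members closer than 50 kb were joined, 1105 of 1274 groups held a single member and 169 held more, with 379 members (25.5%) in them. Loci were named here after their counts were seen. The largest group held 6 members over 113729 bp by Add3, which encodes an adducin of the membrane skeleton, and Xpnpep1, an aminopeptidase gene. Of these members 4 were poised and 2 primed, 5 held a GATA6 motif and none was raised after Oct4 knockdown. The next held 5 members over 99030 bp nearest to Aebp2, a partner of Polycomb complexes, and Gm11077, with a GATA6 motif in all 5. As nearest protein-coding gene, Lamc1 and Magi1 had 5 members each.

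Near genes of the PrE list (43 genes of the lineage) 15 members had their summit within 50 kb of a transcript start, at 9 genes. That is 1.01% of members, beside 1.12% of all Late regions and 0.894% of all regions, and no enrichment is read from it. Near genes of the pluripotency list (20 genes) there were 2 members, 0.135% beside 0.112% of all Late regions and 0.342% of all regions. For both lists any annotated transcript start of a gene counted, so a member can lie far from the gene's other starts.

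Genes of the basement membrane, which the PrE lays down, and of collagen processing had 10 of the 15 members, and no enrichment is read from this. Listed genes of the same kind without a member were Lamb1, Col4a1, Col4a2, Sparc, Nid1 and Serpinh1. Of the 10, 6 lay by Lamc1, which encodes the gamma-1 chain of laminin. The 5 with Lamc1 as their nearest protein-coding gene are shown for the variety of their motifs. They are printed in genome order on the plus strand, with the GATA6 motif of the summit window in capitals.
Poised, between genes, chr1:153208144-153208204: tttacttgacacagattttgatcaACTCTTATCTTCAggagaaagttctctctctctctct
Poised, between genes, chr1:153211278-153211338: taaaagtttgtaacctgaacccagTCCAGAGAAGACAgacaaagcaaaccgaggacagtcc
Poised, intron of Lamc1, chr1:153307924-153307984: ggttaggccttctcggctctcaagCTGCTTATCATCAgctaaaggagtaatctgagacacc
Poised, intron of Lamc1, no motif in the window, chr1:153318094-153318154: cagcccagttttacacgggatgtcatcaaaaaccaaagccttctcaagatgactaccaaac
Active, between genes at the Lamc1 start, chr1:153333899-153333959: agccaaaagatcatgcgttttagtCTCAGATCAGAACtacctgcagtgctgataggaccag
Distances are to the nearest annotated start of any transcript of the gene, which need not be its main start. The poised members between genes were measured to another Lamc1 start than the intron and active members. All 5 were moderate at d0 and unchanged after Oct4 knockdown. The active member lay 1133 bp from its nearest Lamc1 transcript start with a score of 8.05, and its motif holds GATC and no GATA. The strongest match, 13.90 with AGATAA on the minus strand, was in the poised region 21006 bp from its nearest start. At 1329 bp this region was the widest of the 5. The poised region 17812 bp from its nearest start had a score of 8.19 without a GATA in its motif.

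The other 4 lay by 4 different genes, again with distances to the nearest annotated transcript start of the gene. The Nid2 member (nidogen-2), poised and closed, was in an intron 6426 bp from the start, with 3 GATA6 motifs and a best score of 10.02. The Hspg2 member (perlecan), poised and moderate, lay 6273 bp from the start and had no deposited GATA6 or SOX17 motif. The Lama1 member (laminin alpha-1), poised and closed, was in an exon 39720 bp from the start, with no GATA6 motif but the word AGATAA. The P4ha2 member, by the gene of a collagen prolyl hydroxylase subunit, was poised and closed. Its summit lay 650 bp from the nearest annotated start, which need not be the main promoter. A motif of score 9.48 lay 5 bp from the summit.

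Genes of endocytosis and transport had 4 members, again with distances to the nearest annotated transcript start of the gene. The Lrp2 member lay in an intron of the gene of megalin, the endocytic receptor of visceral endoderm, 34486 bp from its start. It was primed and closed, had a best score of 13.18, and was the only one of the 15 whose GATA6 binding was raised after Oct4 knockdown. It is shown with its motif in capitals on the plus strand.
Primed, intron of Lrp2, chr2:69543668-69543728: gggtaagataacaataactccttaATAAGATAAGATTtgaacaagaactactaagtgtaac
A second AGATAA precedes the motif in the printed stretch. The Dab2 member, by the gene of an adaptor that works with megalin, was primed and closed, with a score of 7.56. It lay in an intron of C9, 25913 bp from the nearest annotated Dab2 start. Both members by Ttr (transthyretin) were moderate at d0, 25096 and 48329 bp from its start, with scores of 6.59 and 8.61. The remaining member of the 15 lay in an intron of Ctbp2, with a score of 7.60. It counted for Fgfr2, a receptor of the growth factor signal that drives PrE fate, through an annotated Fgfr2 transcript start at 15235 bp. Whether Fgfr2 uses this start in these cells was not examined.

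Of the pluripotency list, the Klf5 member was primed and moderate. It lay 6166 bp from the nearest annotated start of this Krüppel-like factor gene and 889 bp from that of Gm4412. Its motif lay on the summit with a score of 9.36 and is shown because it contains no GATA.
Primed, near Klf5, chr14:99292495-99292555: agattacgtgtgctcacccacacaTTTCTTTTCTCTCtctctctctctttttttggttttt
The capitals run into a pyrimidine repeat. The Utf1 member, near the gene of a chromatin protein of undifferentiated cells, was active and moderate, with a score of 8.66. It lay in an exon of 6430531B16Rik, 32164 bp from the nearest annotated Utf1 start.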

How the data were processed

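KH2 cells were profiled by MNase-seq in 18 libraries. The submitters' processing notes name bcl2fastq, cutadapt, Bowtie2, SAMtools and mm10. The deposited table gives GATA6 regions in 105 columns. The analysis used 30 (positions, classes and motifs). The other columns, 59 of signal, 12 of motif groups and 4 of mean motif values, were not used, as none belongs to an MNase library, so depth is unknown. Per the study's methods, the authors called peaks with MACS2 on mm10, clustered GATA6 time courses and histone marks by k-means, took PTF and SOX17 classes from peak calls and the Oct4 knockdown class from DESeq2. The deposited motif score is the authors' FIMO log-odds score, with no normalization.

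Score matrices were recovered from the deposited motifs by least squares (GRCm38 sequence, bases counted from 1), and rescanning recovered 100.0% of deposited best scores. Control windows counted only where they overlapped no region. Transcripts came from GENCODE M21. Shares carry 95% Wilson intervals. Odds ratios carry Woolf intervals, with 0.5 added to tables with an empty cell. Fisher's exact tests were adjusted over 78 tables. The functions for Fisher and Mantel-Haenszel odds ratios were tested on simulated counts, and the word search and annotation steps were not. Alternatives were region width, GC content and accessibility strata (Mantel-Haenszel), whole regions, stricter motif scores, other distances and windows, 1 region per run, and leaving out summits near transcript starts.

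Named regions were the 2 members per state with the highest GATA6 score (not on chromosome 18) and all members of a knockdown class with at most 5. Members within 50 kb of any annotated transcript start of a listed gene were also named. Members and lists were chosen with earlier results of these data known. Sequences on exons or chromosome 18 were not printed. Software was scipy 1.17.1, pandas 2.3.3, numpy 2.4.6 and matplotlib 3.10.9 under Python 3.11.15. One named region is not reported here.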

Additional observations from a re-analysis of the deposited data

How the results depend on the processing

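No paired analysis was possible because no column used holds a value of a library, and regions carry no replicate number. Of the alternatives for shares of motifs, accessibility, knockdown classes and distances, 129 kept direction and side of the threshold, 9 passed it newly, 4 no longer passed and 8 changed sign. The number of words that differed was another in 5 of 9 alternatives, in 2 of them by more than 1.5 times, and an equal number need not be the same words. Log2 odds ratios of members are given here, and causes were not tested. Over whole regions the GATA6 motif against SOX17-bound regions fell to 0.04, the SOX17 motif against Transient regions turned to -0.39, the OCT4:SOX2 motif against SOX17-bound regions passed at -0.45 and the ESRRB motif turned to -0.19. With scores at or above the median, the SOX17 motif against Transient regions passed at 0.35, the ESRRB motif against SOX17-bound regions at 0.61, and the OCT4:SOX2 motif turned to 0.14. The ESRRB motif against SOX17-bound regions (0.32) also passed within width bins (0.44), within GC bins (0.35), with 1 region per run (0.41) and without summits near transcript starts (0.37). Within GC bins, chosen after seeing the data as was 1 region per run, the OCT4:SOX2 motif against the other states was 0.00. The accessible class alone gave 0.41 against SOX17-bound and -0.28 against Transient regions. Raised binding against the other states was -0.02 within width bins and -0.01 with 1 region per run. Lowered binding against SOX17-bound regions was 0.07 with 1 region per run and 0.14 without summits near transcript starts, the setting under which the SOX17 motif against Transient regions passed at 0.23 and the GATA6 motif of active against primed members did not (-0.73). Early&Constant regions within 50 kb gave -0.34 against SOX17-bound regions. Words that differed fell from 4 to 2 of 13 against SOX17-bound regions without summits near transcript starts, and from 7 to 4 against the other states within GC bins. Of the alternatives for single words, 4 passed newly (TGTTTAC against SOX17-bound regions and the other states, and AACAAAG against Transient regions under 2 settings) and 8 no longer passed (TGATAA and, under 2 settings, CCACACCC against SOX17-bound regions, and TGANTCA and CACGTG under 2 settings each and GCCNNNGGC against the other states). In 10 cases a word's ratio, not past the threshold, changed sign: TGTTTAC (0.01), ATTTGCAT (0.28) against the other states and GCCNNNGGC (-0.05), CACGTG (-0.03 and -0.12) and CCGGAAGT (-0.26) against SOX17-bound regions, and CCACACCC (0.03 and 0.06) and CACGTG (0.05 and 0.09) against Transient regions.

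Neighbouring regions share sequence context and are not independent. Classes were taken as deposited, without the depth behind them, so a weak SOX17 or PTF peak below the calling threshold counts as absent.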
